A study of Mus musculus with 4 samples.

Results

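The BCL2 family decides whether the outer membrane of the mitochondrion is breached during apoptosis, and it was followed here in the small intestine of mice that carry a CFLARs transgene. Its 10 listed genes were chosen by name, as 3 pro-survival genes (Bcl2, Bcl2l1 and Mcl1), 2 genes of pore-forming effectors (Bax and Bak1) and 5 BH3-only genes (Bid, Bad, Bik, Bcl2l11 and Bbc3). Of these, 9 had a probe set annotated with that single symbol, 1 each, among 19938 genes with such a probe set. Bax was not analysed here. RNA was measured on 4 single-colour Affymetrix arrays, 2 from CFLARs Tg and 2 from wild-type mice, all of the C57BL/6 strain. Replicate 1 of each genotype has a title ending in XCFX or XX and replicate 2 one ending in XCFY or XY. These are called the XX-type and the XY-type arrays. CFLARs is the short form of the Cflar product, also called cFLIP, which regulates caspase-8. The promoter of the transgene, its copy number, the age of the mice and the number of animals per array are not given in the labels, although the series title speaks of preterm mice. Xist and Y-linked genes followed these titles, as given below, so the 2 arrays of a genotype did not come from 1 animal. The spread within a genotype thus also holds any difference between the types. P-values measure only the spread between these samples, which may be technical in part.

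In the mitochondrial pathway, BAX and BAK oligomerise in the outer membrane and release cytochrome c, which starts the caspase cascade. BCL2, BCL-XL (the product of Bcl2l1) and MCL1 bind and restrain them. BH3-only proteins, such as BIM (Bcl2l11) and PUMA (Bbc3), neutralise the pro-survival proteins or activate the effectors directly. BID connects this pathway to death receptors, since caspase-8 cleaves it to the active form. In mouse intestinal epithelium MCL1 and BCL-XL are known to protect cells from apoptosis.

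The upstream sequences of the members were searched for 4 motifs in RefSeq windows of 300 bases (GRCm38.p6, 250 before and 50 after an annotated start). Of the 10 members, 9 had a window, with 15 windows in all, and Bik had none. The 3 motifs planned at the outset matched no member measured here. The STAT motif TTCNNNGAA and the AP-1 motif TGANTCA, both the same on either strand, were in 0 of the 15 windows, against 8.30% and 7.81% of all 32851 windows, and the p53 half-site was in 1, that of Bax, against 8.36%. The FOXO motif GTAAACA was the 4th motif tried. It was chosen after the member sequences and the differences had been seen, so its matches are no support for any relation to the values. It was searched on both strands and found in 1 of the 2 windows of Bcl2l11 and 1 of the 3 of Bbc3, against 3.65% of all windows. A match is a run of letters, and binding was not measured.

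The members shown are those with the lowest adjusted p in each direction, Mcl1 (chr3:95658471-95658720, plus strand) and Bcl2l11 (chr2:128125788-128126037, plus strand), each with the 250 bases before its first listed start, 5′ to 3′. Capitals mark the FOXO motif on either strand, which Mcl1 lacks and which begins at position -227 from the start in Bcl2l11. The match of Bbc3 (chr7:16310084-16310110, plus strand) is added with 10 bases on each side, and there the capitals spell the motif's reverse complement. These upstream stretches of Mcl1 and Bcl2l11 held 26 and 24 CG dinucleotides, against a median of 6 over all windows.
Mcl1: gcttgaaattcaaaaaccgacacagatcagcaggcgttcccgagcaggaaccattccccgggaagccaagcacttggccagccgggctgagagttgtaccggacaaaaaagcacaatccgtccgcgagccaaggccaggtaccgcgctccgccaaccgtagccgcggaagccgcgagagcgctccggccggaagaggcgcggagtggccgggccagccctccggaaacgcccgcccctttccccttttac
Bcl2l11: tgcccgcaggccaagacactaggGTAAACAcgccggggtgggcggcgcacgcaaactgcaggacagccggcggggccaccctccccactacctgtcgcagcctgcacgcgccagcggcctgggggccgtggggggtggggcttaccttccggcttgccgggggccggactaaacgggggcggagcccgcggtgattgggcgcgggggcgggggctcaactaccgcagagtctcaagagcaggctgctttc
Bbc3: ctggcgggttTGTTTACaaacaatggg

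The tissue and the titles were checked before the genotypes were compared. All 10 enterocyte markers read between 11.03 and 14.30 on the log2 scale. Xist and 3 Y-linked genes followed the titles on all 4 arrays, and their 8 readings where the gene should be silent ran from 5.13 to 6.78, which gives a scale for background. The 36 member readings lay above it, between 7.09 and 11.53. Cflar itself read 9.49 and 9.30 in CFLARs Tg, against 9.34 and 9.29 in wild-type (log2 difference 0.08, SE 0.08, limma adjusted p = 0.498). Whether its probe set matches the transgene is not known, so it does not check the genotype.

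No member passed the test between the genotypes. The RNA came from whole tissue, in which fewer cells of a type and less RNA per cell cannot be told apart. The 30% of genes with the lowest mean were left out before the fit, which removed Bbc3 and kept 8 members among 13956 genes. With limma, 0 of the 8 fitted members were called at an adjusted p under 0.05, against 19.3% of all genes fitted (8.44% higher and 10.9% lower in CFLARs Tg). The members' adjusted p ran from 0.0622 for Bcl2l11 to 0.685 for Bid. Before adjustment, Bcl2l11, Mcl1 and Bak1 had a p under 0.05, 3 of the 8. This is 37.5%, close to the 39.1% of all genes fitted. The median log2 difference over the 8 members was 0.05, against -0.01 over all genes. Their median absolute difference was 0.155, against 0.150 over all genes, nearly the same size. The smallest absolute log2 difference called among all genes was 0.23, and of the fitted members Bcl2l1 and Bcl2l11 had a larger one.

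The arrays nonetheless separated by genotype for most members. In 6 of the 8 fitted members both CFLARs Tg arrays lay beyond both wild-type arrays, which is 75.0%, against 69.6% of all genes fitted. Counting Bbc3, 7 of 9 members were separated, 4 of them higher in CFLARs Tg (Bcl2l1, Mcl1, Bak1 and Bik) and 3 lower (Bad, Bcl2l11 and Bbc3). A share this close to that of all genes says nothing particular about the family.

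**Figure D1:**
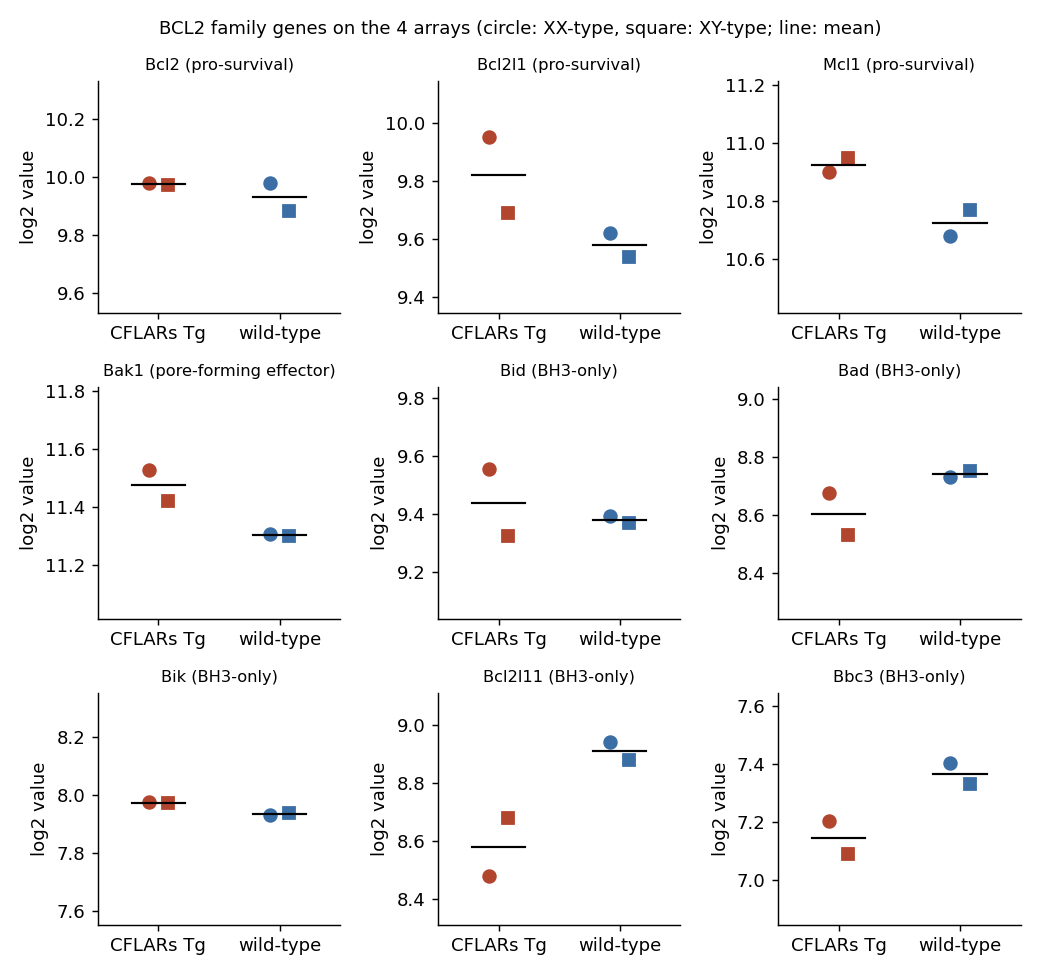
Log2 value of each of the 9 measured members on each array, CFLARs Tg left and wild-type right, with circles for XX-type and squares for XY-type arrays and a line at the mean of 2 arrays. Each panel spans the same height on the log2 scale, and the groups overlap only in Bcl2 and Bid.

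Among the pro-survival genes, Mcl1 and Bcl2l1 read higher in CFLARs Tg and Bcl2 overlapped. Mcl1 encodes a short-lived guardian that binds BAK and BIM. Its log2 values (probe set 10494306) were 10.90 and 10.95 in CFLARs Tg, against 10.68 and 10.77 in wild-type. The groups did not overlap, and the gap between them was wider than the gap within either. The difference was 0.20 (SE 0.06, 95% interval 0.03 to 0.37, limma adjusted p = 0.0892), or 1.15-fold.

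Bcl2l1, the BCL-XL gene, showed more scatter. It read 9.95 and 9.69 in CFLARs Tg, against 9.62 and 9.54 in wild-type (probe set 10488655). The XCFX array was well above the other 3, and the XCFY array lay just above the wild-type arrays. The log2 difference was 0.24 (SE 0.11, 95% interval -0.03 to 0.52, limma adjusted p = 0.165), or 1.18-fold. Bcl2, the founding member of the family, had log2 values of 9.98 and 9.97 in CFLARs Tg, against 9.98 and 9.88 in wild-type (probe set 10357043). One wild-type array matched the CFLARs Tg arrays, and the difference was 0.04 (SE 0.06, 95% interval -0.12 to 0.21, adjusted p = 0.642), so a change of more than 0.21 in either direction lay outside the interval.

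Bak1, the only effector gene measured, was separated but by a small step. It read 11.53 and 11.42 in CFLARs Tg, against 11.31 and 11.30 in wild-type (probe set 10449303). Both CFLARs Tg arrays were higher, with a log2 difference of 0.17 (SE 0.06, 95% interval 0.00 to 0.34, limma adjusted p = 0.125), or 1.13-fold. Mcl1, Bcl2l1 and Bak1 thus lay on the same side of wild-type, and none of them passed the test.

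The 5 BH3-only genes did not share a direction. Bcl2l11, which encodes BIM, had the largest difference of all members. Its log2 values were 8.48 and 8.68 in CFLARs Tg, against 8.94 and 8.88 in wild-type (probe set 10475866). Both CFLARs Tg arrays were lower, the XCFX array more so. The difference of -0.33 (SE 0.09, 95% interval -0.56 to -0.10, limma adjusted p = 0.0622) put CFLARs Tg at 79.5% of wild-type. A larger absolute difference was found for 22.7% of all genes fitted.

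Bbc3, the gene of the p53-inducible protein PUMA, also read lower, and it had the lowest readings of the measured members. It had 7.20 and 7.09 in CFLARs Tg, against 7.40 and 7.33 in wild-type (probe set 10550290). Because it fell under the filter, its difference comes from the fit without a filter, -0.22 (SE 0.07, limma adjusted p = 0.112). Its readings lay little above the scale for background, where differences in RNA are understated. Bad, whose product is held inactive by phosphorylation under growth factor signals, read 8.68 and 8.53 in CFLARs Tg, against 8.73 and 8.75 in wild-type (probe set 10461017). The groups did not overlap, but the XCFX array lay close below the wild-type arrays, and the difference was -0.14 (SE 0.07, 95% interval -0.33 to 0.05, adjusted p = 0.230).

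Bid and Bik were close to 0 in their differences. Bid, the substrate of caspase-8 in this family, read 9.55 and 9.32 in CFLARs Tg, against 9.39 and 9.37 in wild-type (probe set 10547531). The wild-type arrays fell between the CFLARs Tg arrays, and the log2 difference was 0.06 (SE 0.09, 95% interval -0.19 to 0.30, limma adjusted p = 0.685). Bik, a BH3-only gene whose product sits at the endoplasmic reticulum, read 7.97 on both CFLARs Tg arrays, against 7.93 and 7.94 in wild-type (probe set 10425801). These groups were separated by 0.04 (SE 0.05, adjusted p = 0.640), with a 95% interval of -0.10 to 0.18. The separation of Bik was thus smaller than its own error.

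**Figure D2:**
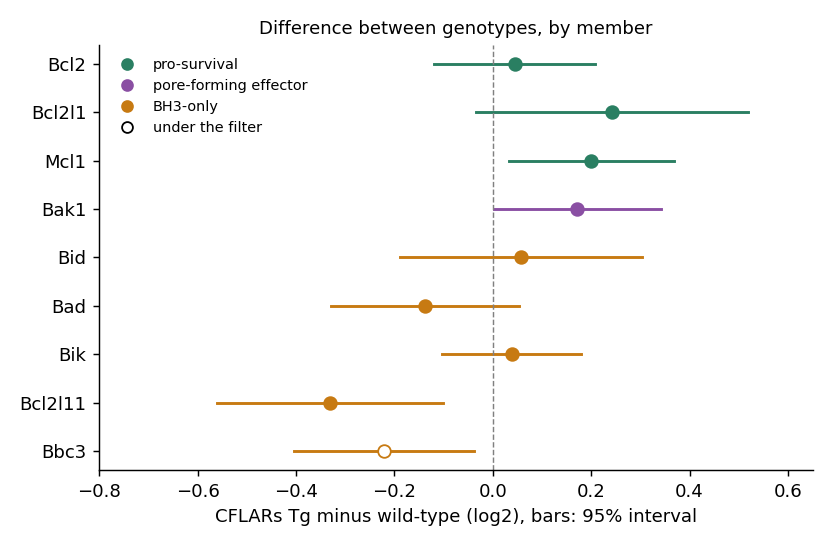
Log2 difference (CFLARs Tg minus wild-type) of the 9 measured members, coloured by role, with unadjusted 95% intervals from limma. The intervals of Mcl1, Bak1, Bcl2l11 and Bbc3 leave out 0, Bbc3 (open point) comes from the fit without a filter, and no member was called after adjustment.

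Averaged by role, the pro-survival genes lay higher by 0.16 on the log2 scale, the effector Bak1 by 0.17, and the BH3-only genes differed by -0.12, although Bid and Bik among them lay on the other side of 0. The summary was made after the values had been seen and has no test. The mean of the 3 pro-survival genes minus that of the 5 BH3-only genes was 1.90 and 1.89 in CFLARs Tg, against 1.61 and 1.61 in wild-type, a log2 shift of 0.28. Only the shift can be read, since different probe sets have no common scale. It came to 0.29 between the XX-type arrays and 0.28 between the XY-type arrays. Without Bbc3 the shift was 0.26, without Bcl2l11 0.23, and without both 0.18.

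Each title type holds 1 array of each genotype, so the differences within a type are values without a test. In 7 of the 9 members both differences had the same sign. For Bcl2l11 they were -0.46 in the XX-type and -0.20 in the XY-type arrays. For Bcl2l1 they were 0.33 and 0.15, and for Mcl1 0.22 and 0.18. Bad went the other way round in size, with -0.05 in the XX-type and -0.22 in the XY-type arrays. Bid had 0.16 and -0.05 and Bcl2 -0.000391 and 0.09, the 2 members whose sign was not shared.

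**Figure D3:**
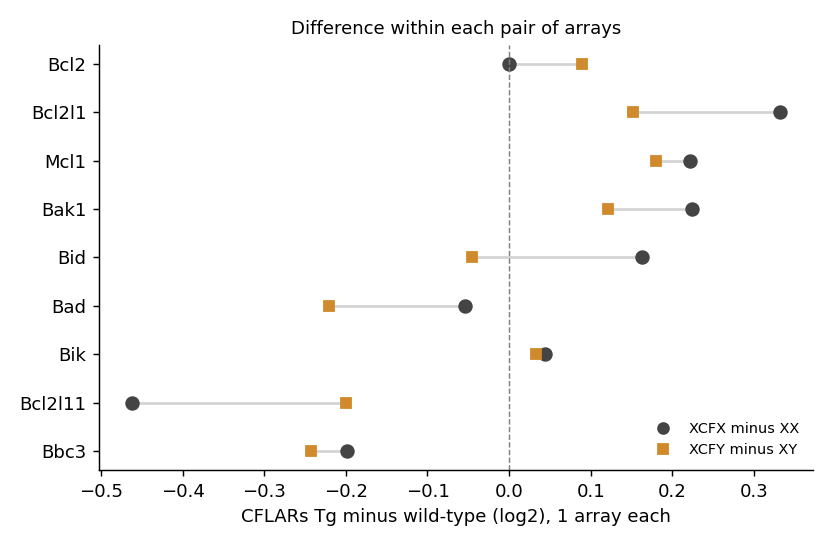
Log2 difference of each member between the XCFX and XX arrays (circles) and between the XCFY and XY arrays (squares). Bcl2l11 and Bcl2l1 differ more in the XX-type arrays, Bad more in the XY-type arrays, and Bid lies on both sides of 0.

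Calls among the members differed with the array left out, which alters both the spread and the differences. Leaving out an array also sets a single title type in that genotype against both types in the other. Genotype and type are then mixed in these fits. Without CFLARs Tg replicate 1, when the spread came from the wild-type arrays alone and the remaining CFLARs Tg array was assumed to vary like them, 3 of 8 members were called in limma. Mcl1 was higher by 0.23 (adjusted p = 0.0360), and Bad and Bcl2l11 were lower, with differences of -0.21 (adjusted p = 0.0272) and -0.23 (adjusted p = 0.0260). In that fit 47.0% of all genes were called. Without CFLARs Tg replicate 2, 3 of 8 were called again, Bcl2l1 at 0.37 (adjusted p = 0.0111), Bak1 at 0.23 (adjusted p = 0.0298) and Bcl2l11 at -0.43 (adjusted p = 0.00643), against 32.4% of all genes. Bcl2l11 was called in both fits. The share of all genes called in both was not counted, so this does not set Bcl2l11 apart. Without wild-type replicate 1 or 2, 0 members were called, against 0.301% and 0.287% of all genes. The CFLARs Tg arrays differed from each other more than the wild-type arrays did, with an SD of 0.246 in CFLARs Tg against 0.150 in wild-type for the log2 difference between the arrays of a genotype over all genes fitted, and in 6 of the 9 members.

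**Figure D4:**
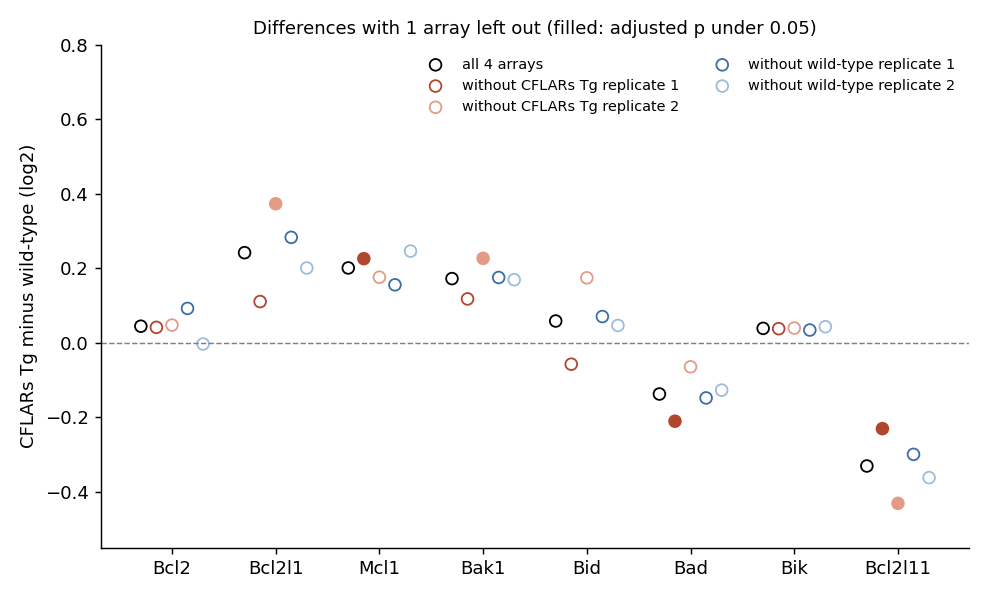
Log2 difference of the 8 fitted members with all 4 arrays and with each array left out, filled where the limma adjusted p was under 0.05. Filled points occur only where a CFLARs Tg array was left out. Bcl2l11 is filled in both of those fits, a recurrence whose share over all genes was not counted.

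The genes around the family were read from 5 lists, chosen with earlier results known. Of 48 fitted genes in these lists, 6 rose and 6 fell in CFLARs Tg (limma, adjusted p under 0.05). This is 25.0%, against 19.3% of all genes fitted. The counts of single lists below stand beside 8.44% higher and 10.9% lower over all genes fitted. Without wild-type replicate 1 or 2, 0 of these 12 calls remained, and without either CFLARs Tg array 12 of 12 did. In those fits 0.301% and 0.287% of all genes were called without a wild-type array, against 47.0% and 32.4% without a CFLARs Tg array. The differences themselves moved little where the calls were lost, as with -0.91 and -0.86 for Trp53inp1 and -1.04 and -0.89 for Casp6.

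Among 11 fitted relatives of the family, 1 rose and 1 fell, with a median difference of 0.02. Bcl2l15, a BCL2-like gene also known as Bfk, read 9.72 and 9.41 in CFLARs Tg, against 8.82 and 8.49 in wild-type. Both CFLARs Tg arrays were clearly above, a 1.87-fold difference (log2 0.91, SE 0.16, adjusted p = 0.0294). Bmf, a BH3-only gene tied to loss of cell attachment, read 8.995 and 9.017 in CFLARs Tg, against 9.294 and 9.326 in wild-type. Its log2 value fell by 0.30 (SE 0.06, adjusted p = 0.0315). Bcl2a1a, Bcl2a1b and Bcl2a1d were not analysed here.

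Downstream of the pore, 2 of 12 fitted genes rose and 2 fell, with a median of 0.04. Casp9, the initiator caspase of the apoptosome, read 9.02 and 8.94 in CFLARs Tg, against 9.35 and 9.35 in wild-type, and fell by 0.37 (SE 0.06, adjusted p = 0.0256). Casp6, an executioner caspase gene, read 10.75 and 10.49 in CFLARs Tg, against 11.52 and 11.66 in wild-type. It fell by 0.97, to 0.511-fold of wild-type (log2 SE 0.11, adjusted p = 0.0183). The genes that rose were Htra2, a protease released from mitochondria that cleaves inhibitors of apoptosis (0.35, SE 0.06, adjusted p = 0.0320), and Vdac2, an outer membrane channel that holds BAK in check (0.27, SE 0.05, adjusted p = 0.0364). The call of Vdac2 was lost with the median of its probe sets and with title type as a block.

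Of 6 fitted genes on the death receptor side, 2 rose and 0 fell, with a median of 0.19. In this list 5 of the 6 differences lay above 0. Fadd went the other way and narrowly missed the threshold (log2 difference -0.25, SE 0.06, limma adjusted p = 0.05003). Casp8, whose product cleaves BID, read 12.43 and 12.29 in CFLARs Tg, against 11.99 and 11.98 in wild-type (log2 difference 0.37, SE 0.07, adjusted p = 0.0351). Its substrate Bid differed by 0.06 in the same samples, and the difference between these genes was not tested. Tradd, an adaptor of the TNF receptor, rose by 0.37 (SE 0.09, adjusted p = 0.0493), a call lost without the filter, after quantile normalization and after median centring.

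Of 11 fitted targets and regulators of p53, 0 rose and 3 fell, with a median of -0.05. Over all genes fitted, 10.9% fell. In this list 5 of the 11 differences lay above 0, among them those of Mdm2 (0.08) and Zmat3 (0.16), so the list shared no direction. Trp53inp1, a stress-induced p53 target, read 9.50 and 9.40 in CFLARs Tg, against 10.30 and 10.35 in wild-type, a fall to 0.543-fold (log2 SE 0.06, adjusted p = 0.0110). The sestrin genes Sesn1 and Sesn2 fell by 0.53 and 0.60 (adjusted p = 0.0179 and 0.0197). Bbc3, which p53 also induces, lay lower too but was not called. Trp53 and Cdkn1a were not analysed here. Among 8 genes of factors that induce BH3-only genes, 1 rose, the stress response factor gene Atf4, with 9.82 and 9.84 in CFLARs Tg against 9.55 and 9.54 in wild-type (0.28, SE 0.05, adjusted p = 0.0345). That call was lost with title type as a block. The list's median was -0.12, and 2 of its 8 differences lay above 0. Foxo3, Foxo1 and Ddit3 differed by -0.28, -0.22 and -0.34 and were not called (limma adjusted p = 0.0536, 0.0831 and 0.224).

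**Figure D5:**
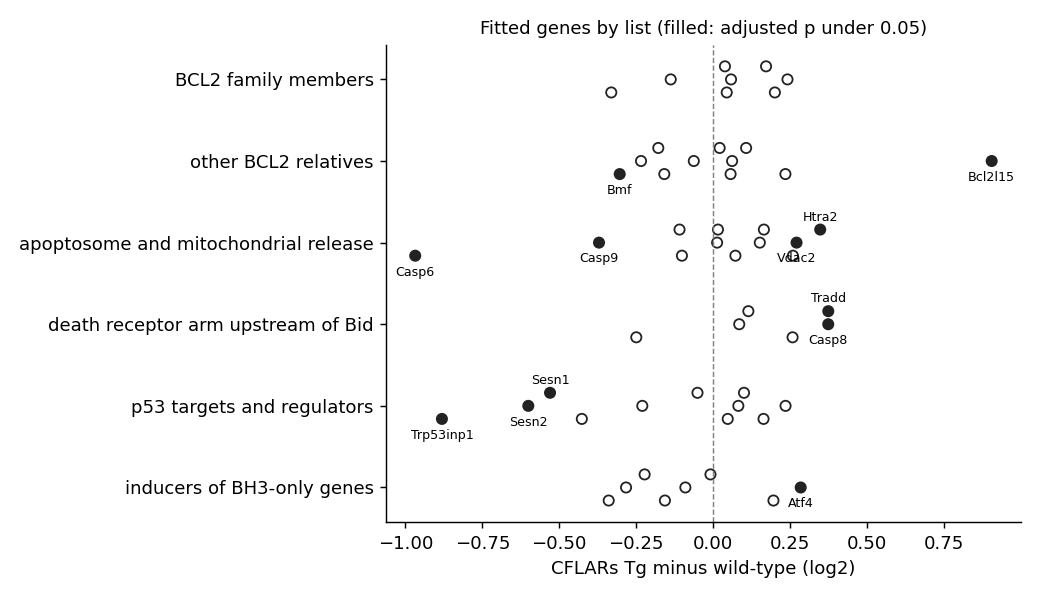
Log2 difference (CFLARs Tg minus wild-type) of each fitted gene in the family and in the 5 lists around it, filled and named where the limma adjusted p was under 0.05. The family holds no filled point, and the 12 filled points of the other lists lie between -0.97 and 0.91.

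Of the cell type markers, the neutrophil, Paneth, goblet, and monocyte and macrophage genes averaged higher in CFLARs Tg, and the enterocyte genes averaged lower. Smaller shifts of the other lists are given below. Apart from neutrophil genes, 1 goblet and 1 endothelial gene passed the test. Neutrophil genes averaged 8.16 and 9.13 in CFLARs Tg, against 6.88 and 7.02 in wild-type (8 of 8 measured). The 5 fitted genes were called higher, but their wild-type means (6.71 to 7.30) lay under the filter's 7.48. They were fitted only through their CFLARs Tg values, so this count is no support for a rise. Of those left out, Retnlg differed by 2.03, Mpo by 0.29 and Elane by 0.07 in the fit without a filter. Monocyte and macrophage genes averaged 9.18 and 9.72 in CFLARs Tg, against 8.83 and 8.84 in wild-type (9 of 9 measured, 0 called). Enterocyte genes averaged 13.14 and 12.61 in CFLARs Tg, against 13.35 and 13.36 in wild-type (10 of 10 measured, 0 called). None of the 10 differences lay above 0, and the largest in size was -1.49, for Lct. T and B lymphocyte genes averaged 7.44 and 7.51 in CFLARs Tg, against 7.33 and 7.36 in wild-type (8 of 9 measured, 0 of 3 fitted called), with the B cell marker Ms4a1 within the scale for background. That average includes Ptprc, which is not specific to lymphocytes and differed by 0.72. The other fitted genes of the list, Cd3e and Cd79b, differed by -0.08 and 0.12. Goblet cell genes averaged 12.10 and 12.39 in CFLARs Tg, against 11.14 and 11.86 in wild-type (1 of 6 fitted rose), and Paneth cell genes 8.61 and 9.52 in CFLARs Tg, against 7.75 and 8.26 in wild-type (0 of 4 fitted called), with Itln1 within the scale for background. Mesenchymal genes averaged 12.24 and 12.36 in CFLARs Tg, against 12.25 and 12.27 in wild-type (0 of 7 called), and endothelial genes 10.08 and 10.20 in CFLARs Tg, against 10.32 and 10.23 in wild-type (1 of 5 fell). Innate lymphoid genes averaged 7.12 and 7.14 in CFLARs Tg, against 7.21 and 7.16 in wild-type (6 of 8 measured, 0 of 1 fitted called), with Ncr1 and Klrb1c within the scale for background. Il7r fell under the filter, although its wild-type mean was 7.70. In the fit without a filter it differed by -0.52 (limma adjusted p = 0.0193), Gata3 by -0.10 and Il17a by 0.10. Enteric neuron and glia genes averaged 8.68 and 8.61 in CFLARs Tg, against 8.77 and 8.74 in wild-type (0 of 3 fitted called), and the 1 erythroid gene measured read 8.78 and 8.67 in CFLARs Tg, against 8.41 and 8.69 in wild-type. The part of these shifts in the members' values was not tested.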

How the data were processed

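Biotin-labelled cRNA from small intestine was measured on 4 arrays, 2 CFLARs Tg and 2 wild-type. The authors deposited log2 values of 28856 probe sets for each array. Their summarisation, background correction and normalization are not given in the sources used here, and the array medians were 8.31 to 8.33. The log2 values were used as deposited. Probe sets with a single symbol in the platform annotation (21789) were named, and the one with the highest mean stood for a gene. The 30% of genes with the lowest mean (under 7.48) were left out, and CFLARs Tg was compared with wild-type in limma 3.58.1 (R 4.3.3, lmFit and eBayes, no covariates, 2 residual degrees of freedom, Benjamini-Hochberg over 13956 genes). The fit was tested on simulated data with the spread of the wild-type arrays and changes larger than those of the members. That test therefore does not show whether differences of the members' size would be called. The number of arrays limits the precision. All members, every array's value, and the called genes of the surrounding lists are named. The members and lists were chosen with earlier results of these data known. Of 4 promoter motifs, 3 were planned and the FOXO motif was added after the sequences were seen, as was the contrast of roles. Alternatives were 2 normalizations, 2 filters, the median of probe sets, title type as a block, a trended robust prior, and each array left out.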

Additional observations from a re-analysis of the deposited data

Results flagged for a closer look

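The genotype difference had opposite signs in the XX-type and the XY-type arrays for Bid and Bcl2. For Bcl2 the XX-type difference was -0.000391, too small to carry a sign. The XX-type difference minus the XY-type difference was 0.208 on the log2 scale for Bid and -0.0894 for Bcl2. With 1 array per genotype and type, this contrast was not tested.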

How the results depend on the processing

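Under the 7 alternatives that kept all 4 arrays, the 55 member differences kept their direction and 0 members were called in limma (lowest adjusted p = 0.0548, for Bcl2l11 after median centring). Leaving out 1 array changed the counts in either direction, and the spread then came from the other genotype alone. Over the 4 such fits, genes higher ranged from 34 to 3112, genes lower from 3 to 3447, members higher from 0 to 2, members lower from 0 to 2, and the median member difference from 0.0395 to 0.111. Bcl2 ranged from -0.00345 (without wild-type replicate 2) to 0.0920 and Bid from -0.0576 (without CFLARs Tg replicate 1) to 0.17, the only members whose sign turned. With title type as a block, which pairs the XCFX with the XX and the XCFY with the XY array, 1411 genes were called higher and 1701 lower. With 2 arrays per genotype, whether a difference was called depended on each gene's error as well as on its size.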
